A study of Mus musculus with 12 samples.

Results

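The valine fragments described here are small RNAs from the 5′ end of valine transfer RNA (tRNA) in mouse sperm. They are the family built around the fragment of tRNA-Val-CAC: 185 of the 2971 sequences in the deposited table, with a mean of 20614 RPM (reads scaled to a common library total) over 12 libraries, or 2.10% of the table's signal. Members were selected on the mean of the 12 deposited RPM columns: sequences were taken from the most abundant down, and each joined the family of the nearest more abundant sequence that it matched within 2 edits, the shorter inside the longer, or founded a new family. The founder is 32 nucleotides (nt) long. Abundance and sequence likeness therefore chose the members, and both are given as description. The least abundant member averaged 2.04 RPM, which is also the lowest mean in the whole table, so the family reaches the table's own lower limit and rarer fragments are not analysed here. With at most 1 edit allowed instead of 2, the family had 164 members and 19811 RPM. All 185 members passed the minimum mean of 1 RPM used for testing, and 9 had no read in at least 1 library.

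The sperm were histone replacement-completed sperm (HRCS), the fraction whose histones have been exchanged, isolated by 82% Percoll from cauda epididymis and vas deferens after the tails were removed by sonication. There were 4 groups of 3 libraries: ATF7+/- males on a low protein diet (LPD), ATF7+/- males on a control diet (CD), wild-type (WT) males on LPD and WT males on CD, with diets given from week 3 to week 12 of age. ATF7+/- animals carry 1 intact allele of ATF7, a stress-responsive transcription factor; no group lacks it completely, strain is not stated, and the table holds no messenger RNA with which to check genotype or sperm purity. Nothing says whether the 3 libraries of a group came from separate animals, so p-values measure only the spread between these libraries. Reads were 36 bp long, so a longer fragment could not be seen to its end. Library totals ran from 2198744 to 6870039 reads and reads of the valine family from 33327 to 172426.

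A tRNA folds into a cloverleaf whose anticodon loop pairs with the codon. Ribonucleases such as angiogenin cut in or beside that loop, and the 5′ fragments left behind are among the most abundant small RNAs of mature mouse sperm; much of this cargo is acquired in the epididymis, and paternal diet has been reported to alter it. Valine tRNAs occur with the anticodons CAC, AAC and TAC. In AAC tRNA the first anticodon base is deaminated to inosine, which reverse transcriptase reads as G. RefSeq lists 22 mouse valine tRNA genes: 11 with CAC, 8 with AAC and 3 with TAC, and 10 of the 22 lie on chromosome 13.

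Only 1 of these genes could be read as sequence, n-TVcac9, at chr13:23446142-23446214 on the minus strand (RefSeq, GRCm38.p6). It holds the founder whole, and the other valine genes were not searched. The 73 nt gene is shown because every position below is counted from its first base; capitals mark the anticodon CAC at positions 34 to 36, within the loop at 32 to 38 and after the stem strand at 27 to 31. The founder covers positions 1 to 32 and so ends on the first base of the loop.
n-TVcac9: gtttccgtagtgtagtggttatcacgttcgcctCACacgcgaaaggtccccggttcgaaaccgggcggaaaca

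The next fragments differ in where they end or in their last base. They are the most abundant member of each main length and the commonest last-base changes; capitals mark bases that differ from the gene.
29 nt: gtttccgtagtgtagtggttatcacgttc
31 nt: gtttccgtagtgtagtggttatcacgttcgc
32 nt, founder: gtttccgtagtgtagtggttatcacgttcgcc
33 nt: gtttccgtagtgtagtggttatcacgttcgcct
32 nt with C32T: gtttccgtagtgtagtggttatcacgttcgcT
32 nt with C32A: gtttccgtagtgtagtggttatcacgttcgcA
31 nt with C31T: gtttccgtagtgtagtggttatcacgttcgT
29 nt with C29T: gtttccgtagtgtagtggttatcacgttT

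Fragments that reach the anticodon include the members that passed testing for diet in ATF7+/- males and for genotype on LPD. At 34 nt the base at position 34 is also the last base, where changes were common. Capitals mark position 34 onward.
34 nt, C at 34: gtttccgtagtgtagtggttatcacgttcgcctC
34 nt, G at 34: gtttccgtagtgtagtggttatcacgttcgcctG
34 nt, T at 34: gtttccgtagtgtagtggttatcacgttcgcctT
34 nt, A at 34: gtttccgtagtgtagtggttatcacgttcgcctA
36 nt, CAC: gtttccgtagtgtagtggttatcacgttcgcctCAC
36 nt, GAC: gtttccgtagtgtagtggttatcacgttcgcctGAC

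The last set shows the most abundant fragment with a missing first base and the most abundant member of each common inner change, with differing bases in capitals.
Start at position 2: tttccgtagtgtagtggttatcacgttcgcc
T20C and T27C: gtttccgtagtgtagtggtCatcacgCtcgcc
G26A: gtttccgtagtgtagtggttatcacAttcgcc
C6T and T27C: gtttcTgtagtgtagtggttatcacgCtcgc

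A few fragments made up most of the family. The founder averaged 5403 RPM, the 29 nt fragment 3747 RPM, the 32 nt C32T fragment 2074 RPM, the 33 nt fragment 1540 RPM and the 31 nt fragment 1498 RPM. These 5 held 69.2% of the family's RPM and the 10 most abundant members 79.6%, whereas 166 members averaged under 100 RPM and the median member 9.88 RPM. The 27 members that match the gene exactly held 67.4%; 110 members differ from it at 1 position and 48 at 2 or 3.

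The 3′ ends clustered at 4 places. Members ending at positions 29, 31, 32 and 33 held 94.1% of the family: 22.8% at 29, 12.0% at 31, 47.7% at 32 and 11.5% at 33. Ends at 30, between the stem positions on either side, made up 1.57%. The loop positions 32 and 33 took 59.3% of the signal, the stem positions 27 to 31 took 37.1%, and the anticodon itself 3.63%. A shorter fragment of 23 nt averaged 11.4 RPM.

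The balance between ends at 29 and 32 differed between libraries of the same group. Fragments ending at 32 held 45.0, 41.3 and 42.7% of the family in ATF7+/- LPD, 52.4, 53.1 and 36.4% in ATF7+/- CD, 51.4, 43.8 and 48.2% in WT LPD and 52.5, 59.8 and 40.7% in WT CD. Replicate 3 was the lowest library of both CD groups. Those ending at 29 ran the other way and held 37.6 and 31.9% in replicate 3 of ATF7+/- CD and WT CD, against 13.5 to 20.6% in the other 4 CD libraries.

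The last base was often not the gene's. Among members ending at 28 to 33, 54 of 163 differed from the gene in their last base, and they held 24.3% of that signal: a final T 16.4%, a final A 6.39%, a final C 1.23% and a final G 0.28%. The share depended on where the fragment ended. It was 8.91% at position 29, 11.6% at 30, 24.6% at 31, 33.3% at 32 and 19.8% at 33. At position 32 a final T averaged 2446 RPM and a final A 802 RPM, beside 6568 RPM for the gene's C.

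These changes sat at the last base and hardly ever inside a longer fragment. No member that runs past position 32 differs from the gene at 32, and those that differ at 31 inside a longer fragment, C31A and C31T, are 1 member each and 0.12% of the longer members' signal. Whether the final bases were added to the RNA or arose in library preparation was not tested.

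Pooled over ends, the last-base share was higher than in the 3 other families compared, but not at every end. Here a last base was compared with its family's own commonest base at that position among longer fragments, not with a gene. Variants of a tRNA within a family can therefore count as changes. Over fragments of 28 to 33 nt with a complete start, the share averaged 23.8% in valine, against 15.7% in Gly-GCC, 13.4% in Glu-CTC and 9.96% in Lys-CTT. The difference was 8.13 ± 0.64, 10.4 ± 1.75 and 13.9 ± 2.70 percentage points (SD, n = 12 libraries), and valine was higher in 12 of 12 libraries each time (exact two-sided sign-flip permutation p = 0.000488, the smallest that 12 libraries can give; Benjamini-Hochberg p = 0.000488 over the 3 comparisons). The families end at different bases, and the pooled difference was not adjusted for that. By end, valine was above all 3 at 32 (33.2%, against 19.6% in Gly-GCC, 28.3% in Glu-CTC and 10.1% in Lys-CTT) and at 33 (19.9%, against 11.2, 16.4 and 16.0% in the same order). At 29 it was below all 3 (8.96%, against 12.4, 11.2 and 28.8%), at 30 it was below Gly-GCC and Glu-CTC (11.7%, against 23.2 and 17.9%), and at 31 below Gly-GCC (24.5%, against 31.3%). These shares by end were not tested.

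Most members began at the tRNA's first base. The 141 members starting at position 1 averaged 19286 RPM in all, 27 starting at position 2 averaged 1091 RPM, 12 at position 3 averaged 199 RPM, 2 at position 4 averaged 13.6 RPM and 3 at position 5 averaged 25.3 RPM. The leading ones were, at position 2, the 31 nt fragment shown above at 398 RPM and, at position 3, a 30 nt fragment at 72.9 RPM, both ending at 32 like the founder. The most abundant at positions 4 and 5 also ended at 32, at 9.22 and 13.4 RPM.

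Fragments with a missing start varied widely between libraries. They held 4.57, 1.52 and 2.92% of the family in ATF7+/- LPD, 11.3, 9.27 and 4.55% in ATF7+/- CD, 1.85, 2.75 and 3.56% in WT LPD and 18.7, 8.57 and 3.52% in WT CD. Replicates 1 and 2 of both CD groups were the 4 highest libraries, and replicate 3 of each lay within the LPD range. The same share in all other sequences of the table was 5.97, 2.42 and 4.07% in ATF7+/- LPD, 12.1, 8.93 and 4.68% in ATF7+/- CD, 3.15, 4.08 and 5.20% in WT LPD and 19.3, 10.2 and 4.93% in WT CD. In the rest, too, replicates 1 and 2 of both CD groups were the 4 highest libraries.

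Of the 32 kinds of change inside the fragments, carried by 122 members and 9.58% of the signal, the commonest paired T20C with T27C, in 21 members and 803 RPM. G26A followed with 15 members and 285 RPM, C6T with T27C with 9 members and 127 RPM, and T27C alone with 8 members and 125 RPM. T20C alone was rarer, at 17.6 RPM in 2 members. Position 27 opens the anticodon stem and position 26 lies between stems; in many tRNAs position 26 is methylated, which can make reverse transcriptase misread it. G26A, G26C and G26T together reached 403 RPM in 25 members. The sequences of the other valine tRNA genes were not used here, so gene variants and misread bases among these changes cannot be told apart. The inner-change share ranged over the 12 libraries only from 8.35 to 11.6%.

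The members long enough to reach position 34 carried more than 1 anticodon. The 21 such members averaged 748 RPM, of which C, the base of CAC tRNA, held 62.8%, G 23.9%, T 9.40% and A 3.89%. At 34 nt this base is the last one, where changes were common in the whole family. In the 8 members that run on to position 35 or 36, the base at 34 was G in 6 members with 80.4 RPM, or 56.3%, and C in 2 members with 62.4 RPM; T and A did not occur there. G at 34 was 49.4 to 68.5% of the reads that ran on in each of the 12 libraries.

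The 36 nt fragment with GAC averaged 40.5 RPM and the 1 with CAC 33.5 RPM. RefSeq lists no mouse valine tRNA gene with GAC. Which tRNA genes these fragments came from was not tested. A at position 34 was found only in the 34 nt fragment, at 29.1 RPM. The 8 most abundant members of the family end before position 34 and hold no anticodon base.

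The share of A and G together at position 34 was 30, 19.0 and 22.0% in ATF7+/- LPD, 37.8, 37.4 and 28.4% in ATF7+/- CD, 25.3, 27.8 and 29.2% in WT LPD and 37.9, 39.1 and 28.2% in WT CD. Replicates 1 and 2 of both CD groups were the 4 highest libraries, and replicate 3 of each lay within its LPD range. The LPD mean was 23.6 ± 5.71% in ATF7+/- against 34.5 ± 5.27% on CD, and 27.4 ± 1.98% in WT against 35.1 ± 6.003% on CD (SD, n = 3; exact two-sided permutation p = 0.2 for each, where 0.1 is the smallest that 3 against 3 libraries allow). Between genotypes the exact permutation p was 0.4 on LPD and 0.7 on CD.

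The total of the family differed most between genotypes on LPD. It was 22803, 21868 and 25540 RPM in ATF7+/- LPD, 27313, 19212 and 15157 RPM in ATF7+/- CD, 17393, 15894 and 17541 RPM in WT LPD and 22395, 23898 and 18353 RPM in WT CD. On LPD every ATF7+/- library lay above every WT library, in WT every LPD library lay below every CD library, and the ATF7+/- CD libraries spanned all of these. By edgeR's quasi-likelihood test on the totals of all 19 families, with Benjamini-Hochberg adjustment, the log2 fold change of ATF7+/- over WT on LPD was 0.47 (SE 0.19, adjusted p = 0.111; exact permutation p = 0.1), and 2 family totals, or 10.5%, were called, neither of them valine. On CD it was -0.07 (SE 0.19, adjusted p = 0.939; exact p = 1) by the same edgeR test.

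For diet, the edgeR log2 fold change of the family total, LPD over CD, was 0.19 in ATF7+/- (adjusted p = 0.606; exact permutation p = 0.5) and -0.35 in WT (adjusted p = 0.390; exact permutation p = 0.1). Over both genotypes it was -0.08 (edgeR adjusted p = 0.755), and the difference between the diet effects, ATF7+/- minus WT, was 0.53 (edgeR adjusted p = 0.692). In these 4 comparisons and between genotypes on CD, 0 of 19 family totals (0%) were called by edgeR, and 0 by DESeq2 or limma. At an unadjusted edgeR p under 0.05 there were 2 totals for diet in each genotype and over both, and 0 in the other 2 comparisons. The genotype difference on LPD changed with the fit: it was called with DESeq2 (0.48, adjusted p = 0.0338) and when the 6 LPD libraries were fitted alone with edgeR (0.47, adjusted p = 0.00502). The ATF7+/- LPD libraries held 4828916 to 6870039 reads and the WT LPD libraries 2278880 to 2874170 reads, and the part of this depth gap in the result was not tested.

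In ATF7+/- males the members called for diet were fragments of 34 nt, which end at the first base of the anticodon. The fragment with C34A had 45.8, 63.2 and 64.6 RPM in ATF7+/- LPD, 19.9, 19.4 and 17.7 RPM in ATF7+/- CD, 23.7, 20.9 and 19.5 RPM in WT LPD and 12.7, 20.3 and 21.2 RPM in WT CD. The 3 ATF7+/- LPD libraries were each above the other 9. The fragment with C34T had 89.7, 163 and 163 RPM in ATF7+/- LPD, 30.3, 34.2 and 40.9 RPM in ATF7+/- CD, 55.3, 56.0 and 44.3 RPM in WT LPD and 24.7, 37.6 and 58.3 RPM in WT CD. Here too ATF7+/- LPD stood above all other libraries.

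Both rose on LPD in ATF7+/-, C34A by 1.60 (SE 0.25) and C34T by 1.99 (SE 0.33) on the log2 scale (edgeR quasi-likelihood, Benjamini-Hochberg adjusted p = 0.0465 each). They were the 2 valine members called, both higher, among 3 called over all sequences (0.101%). Over the 21 alternatives run, each kept its direction, with log2 values of 1.51 to 1.74 for C34A and 1.76 to 2.22 for C34T, and each kept its call in 10. Both calls were lost with limma, TMM scaling, a fit on the ATF7+/- libraries alone, and without any 1 of ATF7+/- LPD replicates 2 or 3, ATF7+/- CD replicates 1 or 2, WT CD replicate 2 or a WT LPD library.

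The 34 nt fragment that matches the gene had 489, 886 and 808 RPM in ATF7+/- LPD, 226, 187 and 224 RPM in ATF7+/- CD, 359, 313 and 288 RPM in WT LPD and 93.9, 161 and 379 RPM in WT CD. Its ATF7+/- LPD libraries were also the 3 highest; the log2 difference by diet in ATF7+/- was 1.78 (SE 0.41, edgeR adjusted p = 0.180). The 34 nt fragment with C34G had 163, 100.4 and 127 RPM in ATF7+/- LPD and 123, 94.2 and 56.9 RPM in ATF7+/- CD, which overlap.

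Summed, the 34 nt fragments with a complete start had 810, 1251 and 1205 RPM in ATF7+/- LPD, 413, 347 and 351 RPM in ATF7+/- CD, 511, 471 and 436 RPM in WT LPD and 192, 298 and 555 RPM in WT CD. ATF7+/- LPD was again above the 9 other libraries. In the edgeR fit of 228 sums of each family's fragments by start and length, the log2 fold change by diet in ATF7+/- was 1.56 (SE 0.36, adjusted p = 0.110), beside a median of -0.34 over all sums, and 1 sum (0.439%), not a valine one, was called. It stayed uncalled in 14 of 19 alternatives. In WT it was 0.44 (SE 0.35, edgeR adjusted p = 0.522). Without WT CD replicate 3, the highest WT library, the WT value was 0.95 and was called (edgeR adjusted p = 0.0429), and over 19 alternatives it ran from -0.23 to 0.95. Over both genotypes the sum rose by 1.00 (SE 0.25, edgeR adjusted p = 0.0246), and over 19 alternatives it ran from 0.70 to 1.26 with the call kept in 11. The call was lost without any 1 of ATF7+/- LPD replicates 2 or 3, ATF7+/- CD replicates 1 or 2, WT LPD replicates 1 or 2 or WT CD replicate 1. The difference between the 2 diet effects was 1.12 (SE 0.50, edgeR adjusted p = 0.833), so the larger value in ATF7+/- is not shown to differ from that in WT.

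As a share of their own family, 34 nt valine fragments made up 3.55, 5.72 and 4.72% in ATF7+/- LPD, 1.51, 1.80 and 2.31% in ATF7+/- CD, 2.94, 2.96 and 2.48% in WT LPD and 0.856, 1.25 and 3.03% in WT CD. The same length held 1.06, 1.22 and 1.21% of all other sequences in ATF7+/- LPD, 0.852, 0.930 and 1.12% in ATF7+/- CD, 1.497, 1.31 and 1.33% in WT LPD and 0.679, 0.887 and 1.32% in WT CD. The rest of the table was thus not highest in ATF7+/- LPD. The valine share divided by that of the rest was 3.98 ± 0.66 in ATF7+/- LPD, 1.93 ± 0.15 in ATF7+/- CD, 2.03 ± 0.21 in WT LPD and 1.66 ± 0.56 in WT CD (SD, n = 3). The groups did not overlap for diet in ATF7+/- or for genotype on LPD (exact two-sided permutation p = 0.1 for each, the smallest possible), while the exact permutation p was 0.4 for diet in WT and for genotype on CD.

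The founder and the 29 and 33 nt fragments overlapped between the diets in ATF7+/-. The 33 nt fragment had 2004, 2089 and 2426 RPM in ATF7+/- LPD and 2022, 1399 and 801 RPM in ATF7+/- CD, a log2 difference of 0.63 (SE 0.29, edgeR adjusted p = 0.295). The founder had 5661, 5142 and 5995 RPM in ATF7+/- LPD and 7870, 5711 and 3059 RPM in ATF7+/- CD, with a log2 difference of 0.01 (SE 0.31, edgeR adjusted p = 0.985). Its LPD libraries lay inside the CD range. The 29 nt fragment had 4103, 3935 and 4636 RPM in ATF7+/- LPD and 3634, 2948 and 4617 RPM in ATF7+/- CD. Over all 185 members the median log2 difference by diet in ATF7+/- was 0.16, beside 0.03 over the table. Without overlap between the diets in ATF7+/-, 21.6% of members and 13.0% of the table were higher on LPD. Lower on LPD were 7.57% of members and 8.25% of the table. The complete-start sums of 35 and 36 nt gave 0.63 and 0.86 (edgeR adjusted p = 0.273 for each), and those of 23 and 28 nt -0.31 and -0.0009.

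In WT males the members called for diet were fragments that lack their first bases. By edgeR, 6 of the 185 members were called and all 6 fell on LPD, among 75 called in the table (2.52%). The members' share is near that of the table. Each of the 6 starts at position 2 or 3 and had an edgeR adjusted p of 0.0486. The 31 nt fragment from position 3 to 33 had 4.39, 5.22 and 6.08 RPM in WT LPD against 93.2, 25.4 and 9.94 RPM in WT CD. The groups did not overlap, but WT CD replicate 3 lay close to the LPD libraries, and the log2 fold change was -3.04 (SE 0.74, edgeR adjusted p = 0.0486). The 29 nt fragment from position 3 to 31 had 2.19, 9.39 and 8.25 RPM in WT LPD against 61.9, 36.8 and 11.6 RPM in WT CD (-2.46, SE 0.59, edgeR adjusted p = 0.0486).

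A fragment from position 2 to 32 with T20C and T27C had 3.51, 2.44 and 7.82 RPM in WT LPD against 60.3, 58.4 and 4.97 RPM in WT CD, so its groups overlapped although it was called (-3.18, SE 0.77, edgeR adjusted p = 0.0486). A fragment from position 3 to 32 with C32A had 1.32, 2.78 and 3.91 RPM in WT LPD against 51.9, 14.4 and 6.63 RPM in WT CD (-3.19, SE 0.72, edgeR adjusted p = 0.0486). Its 1.32 RPM in WT LPD replicate 1 equals 3 reads, the smallest readable level used below, so the size of this fold is uncertain. The other 2 had too few reads in WT LPD for a fold. A fragment from position 2 to 31 with T20C and T27C had 0.439, 0.348 and 1.30 RPM there against 27.8, 32.6 and 2.65 RPM in WT CD, and a fragment from position 3 to 31 with C31T had 1.76, 0.348 and 0.869 RPM against 29.8, 13.5 and 3.65 RPM. Where 3 reads are taken as the smallest readable level, that level was at most 1.36 RPM.

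The share of fragments with a missing start in all other sequences, given above, was likewise highest in replicates 1 and 2 of both CD groups. Each of the 6 calls was kept in 5 or 6 alternatives of the 20 or 21 run. With replicates 1 and 2 of both CD groups left out, which sets 3 LPD libraries against 1 CD library and takes the spread from the other groups, 0 valine members were called for diet in WT by edgeR, and 12 had an unadjusted p under 0.05. Among all 185 members the median log2 difference by diet in WT was -0.44, beside -0.10 over the table. At an unadjusted edgeR p under 0.05 there were 52 members, all of them lower on LPD. The table's counts and directions at this level are not given here. Without overlap between the diets, 12.4% of members and 11.0% of the table were lower on LPD, and 0.541% and 8.45% were higher. None of the 228 sums by start and length was called for diet in WT by edgeR (0%) or limma, with 56 under an unadjusted edgeR p of 0.05; DESeq2 called 42, of which 6 were valine and lower.

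Over both genotypes, by edgeR, 27 of the 185 members were called, 4 higher and 23 lower on LPD, while the table had 353 called (11.9%), 46 higher and 307 lower. The members' share is near that of the table, and 158 members were not called. The 4 that rose start at position 1, reach the anticodon and are 34 to 36 nt long, where 36 is the read length. They were C34A (0.92, SE 0.18), C34T (1.18, SE 0.23), the gene's own 34 nt fragment (1.19, SE 0.29) and a 36 nt fragment with C6T, T27C and GAC. That 36 nt fragment had 6.83, 10.9 and 11.0 RPM in ATF7+/- LPD and 3.05, 1.13 and 1.82 RPM in ATF7+/- CD. In WT it had 4.83, 6.96 and 3.47 RPM on LPD and 0.764, 3.38 and 3.65 RPM on CD. The 23 that fell all lack their first bases, 15 starting at position 2, 7 at position 3 and 1 at position 4, and are 27 to 32 nt long. The lowest edgeR adjusted p among the 27 was 0.0199.

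The largest of those that fell, from position 2 to 32, had 314, 73.4 and 202 RPM in ATF7+/- LPD and 1102, 667 and 151 RPM in ATF7+/- CD. In WT it had 90.0, 120 and 171 RPM on LPD and 1115, 611 and 162 RPM on CD. Replicate 3 of each CD group lay within its LPD range, so the groups overlapped in both genotypes; the log2 fold change over both was -2.01 (SE 0.52, edgeR adjusted p = 0.0303). Without replicates 1 and 2 of both CD groups it was 0.01. Among the sums by start and length, 40 of 228 (17.5%) were called over both genotypes by edgeR. The 6 valine ones were the 34 nt sum, higher, and the sums of 27, 28, 29, 30 and 31 nt with a missing start, lower by 1.11 to 2.07 on the log2 scale. Over 19 alternatives these 5 sums stayed negative and kept their call in 8 to 12, and without replicates 1 and 2 of both CD groups, with 1 CD library left per genotype, none was called and the 31 nt sum was -0.05.

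Between genotypes on LPD most members were higher in ATF7+/-, but few were called. By edgeR 1 of the 185 members was called, higher in ATF7+/-, among 6 in the table (0.202%). It was the 34 nt C34A fragment, with the values above in ATF7+/- LPD and WT LPD, and its log2 fold change was 1.44 (SE 0.25, edgeR adjusted p = 0.0454). Over 21 alternatives it ran from 1.34 to 1.58 and the call was kept in 13; it was lost with the replicate block (edgeR adjusted p = 0.0811) and without any 1 of ATF7+/- LPD replicates 2 or 3, the WT LPD libraries, or ATF7+/- CD replicates 1 or 2. C34T followed with 1.42 (SE 0.32, edgeR adjusted p = 0.0937) and did not pass, although its 89.7 to 163 RPM in ATF7+/- LPD lay wholly above its 44.3 to 56.0 RPM in WT LPD. A 29 nt fragment with T28C had 12.4, 12.5 and 15.1 RPM in ATF7+/- LPD against 4.39, 7.65 and 5.65 RPM in WT LPD, with no overlap (1.16, SE 0.31, edgeR adjusted p = 0.113).

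Of the 185 members, 92 had every ATF7+/- LPD library above every WT LPD library and 0 the reverse. Over the table it was 21.3% above and 14.2% below. The median log2 difference of members was 0.61 and that of all sequences 0.11; 94.6% of members and 58.1% of all sequences were higher in ATF7+/-. These values share the libraries whose depth differs by genotype, given above. Among the more abundant members that were higher without overlap, the 33 nt fragment had 2004, 2089 and 2426 RPM in ATF7+/- LPD against 1249, 1154 and 1368 RPM in WT LPD (0.79, SE 0.29, edgeR adjusted p = 0.197). The 31 nt fragment with C31T had 445, 506 and 556 RPM against 281, 234 and 288 RPM (0.91, SE 0.29, edgeR adjusted p = 0.154). The founder, with 5661, 5142 and 5995 RPM in ATF7+/- LPD against 5393, 4189 and 5094 RPM in WT LPD, overlapped (0.19, SE 0.31, edgeR adjusted p = 0.793).

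By length on LPD, the 34 nt sum gave a log2 difference of 1.20 (SE 0.35, edgeR adjusted p = 0.102) between ATF7+/- and WT. The 33 nt sum gave 0.82 (SE 0.30, edgeR adjusted p = 0.178), the 31 nt sum 0.74 (SE 0.30, edgeR adjusted p = 0.228) and the 30 nt sum 0.77 (SE 0.26, edgeR adjusted p = 0.154). No valine sum was called by edgeR on LPD, where 1 sum (0.439%) was called in all. DESeq2 called 4 valine sums, higher in ATF7+/-, and limma 0. How many of all sums DESeq2 called is not given here, so a difference particular to valine is not shown.

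On CD no difference between the genotypes was called. By edgeR 0 of the 185 members and 0 of the 2971 sequences (0%) were called, while 9 members and 125 sequences had an edgeR p below 0.05 before adjustment; neither DESeq2 nor limma called any (0 each). The lowest edgeR p among members belonged to the fragment from position 3 to 31 with C31T, at 5.91, 3.59 and 3.18 RPM in ATF7+/- CD against 29.8, 13.5 and 3.65 RPM in WT CD (-1.86, SE 0.60, edgeR adjusted p = 0.965). Next was a 30 nt fragment from position 2 with T20C, T27C and C31T, the least abundant member. The median log2 difference of members was -0.06, beside -0.05 over the table. None of the 228 sums (0%) was called by edgeR, DESeq2 or limma, with 4 at an unadjusted edgeR p under 0.05.

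The difference between the diet effects, ATF7+/- minus WT, gave 0 calls among the 185 members and 0 among the 2971 sequences (0%) by edgeR. At an unadjusted edgeR p under 0.05 there were 35 members, all with a more positive diet effect in ATF7+/-, and 292 sequences; DESeq2 called 3 sequences, none of them valine, and limma 0. The lowest p among members was that of a 33 nt fragment with C6T and T27C, at 12.8, 13.8 and 15.7 RPM in ATF7+/- LPD, 9.85, 7.74 and 5.91 RPM in ATF7+/- CD, 11.0, 4.87 and 3.47 RPM in WT LPD and 16.8, 14.8 and 11.6 RPM in WT CD. LPD was above CD in ATF7+/- and below it in WT, without overlap in either; the log2 difference of the effects was 1.99 (SE 0.51, edgeR adjusted p = 0.305). The 34 nt C34A fragment gave 1.35 (SE 0.35, edgeR adjusted p = 0.305). The members' median was 0.72, beside 0.16 over the table. Of the 228 sums 0 (0%) were called by edgeR, DESeq2 or limma, with 13 at an unadjusted edgeR p under 0.05.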

How the data were processed

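Small RNA libraries were sequenced from 12 HRCS preparations, per the labels' protocols. The authors deposited 1 table of 2971 unique tRNA-derived sequences with whole-number read counts and the same counts as RPM, scaled by 1 total per library; the table holds 97.5 to 98.2% of those totals. The submitters' processing notes name the build mm10; the tools used for trimming, alignment and annotation are not given in these sources. PCR duplicates cannot be removed without molecular identifiers.

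Families were rebuilt from the RPM means with edlib 1.3.9.post1 (Python 3.11.15). Sequences, family totals and sums by family, start and length were each fitted on the counts with edgeR 4.0.16 quasi-likelihood (R 4.3.3): 12 libraries, a mean per group, library sizes set to the totals behind the deposited RPM, no further scaling, a mean of at least 1 RPM, and Benjamini-Hochberg adjustment over the whole table (called: adjusted p under 0.05). Standard errors were derived from the fold change and its F statistic. DESeq2 1.42.0 and limma 3.58.1 on log2(RPM + 1) were alternatives, as were TMM, filters, libraries left out and a replicate block. Scripts were tested on simulated data. Members, lists and tests were chosen with earlier results of these data known. Named members are the 10 most abundant, the called ones (at most 10 a comparison, at least 3 by p-value), and the most abundant of each length, start and base at position 34; others shown were chosen after their values were seen.

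Same-numbered libraries deviated together for all 3 numbers only between genotypes on CD (correlations 0.547, 0.143 and 0.522). For diet in ATF7+/- the correlations were 0.414, -0.187 and -0.049. With the replicate block on all 12 libraries the CD comparison still had 0 valine calls by edgeR.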

Additional observations from a re-analysis of the deposited data

Results flagged for a closer look

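Besides the 33 nt fragment with C6T and T27C described above (difference of diet effects 1.99), 3 members had every LPD library above every CD library in ATF7+/- males and every LPD library below every CD library in WT males. How many sequences of the whole table did both was not counted, so a pattern particular to valine is not shown. Taken singly, 13.0% of the table lay above in ATF7+/- and 11.0% below in WT. The 33 nt fragment with T33C had 274, 268 and 320 RPM in ATF7+/- LPD, 239, 163 and 105 RPM in ATF7+/- CD, 143, 141 and 148 RPM in WT LPD and 172, 199.6 and 167 RPM in WT CD, and the difference of the diet effects was 1.09 on the log2 scale (SE 0.38). The 33 nt fragment with T33A gave 1.05 (SE 0.40). The 29 nt fragment with T27C gave 0.94 (SE 0.30). The difference itself did not pass the edgeR test with Benjamini-Hochberg adjustment for any of the 4 (adjusted p = 0.305 to 0.468).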

How the results depend on the processing

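Counts of called members moved with the processing. For diet in WT, 6 members became 30 with DESeq2 and 0 with limma, a minimum of 10 RPM, only the groups compared, or without replicates 1 and 2 of both CD groups, and 0 to 54 with 1 library left out. For diet in ATF7+/-, 2 became 4 with DESeq2, 0 with TMM, limma or only the groups compared, 14 without the 4 CD libraries, and 0 to 4 with 1 left out. For genotype on LPD, 1 became 4 with DESeq2, 39 with only the LPD libraries, 38 without the 4 CD libraries, and 0 to 2 with 1 left out. For diet over both genotypes, 27 became 0 with limma, 16 at 10 RPM, 2 without the 4 CD libraries, and 0 to 46 with 1 left out. The interaction had 0 to 5. Counts over the whole table under these settings, and under the replicate blocks below, are not given here. A move particular to valine is therefore not shown. Causes were not tested.

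With the replicate block on all libraries, genotype on LPD had 0 calls. With the block in the groups compared, chosen after seeing the data, diet in ATF7+/- had 22 calls, genotype on LPD 12 and diet in WT 0; the family total on LPD was called (0.46). Outside the CD genotype comparison, same-numbered libraries did not deviate together for every number. The labels do not say whether equal numbers mark a shared batch.

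The family total of ATF7+/- over WT on LPD was called with TMM (0.64, where the median of all families was 0.20 instead of 0.02), DESeq2 (0.48), only the LPD libraries (0.47) or without the 4 CD libraries (0.47), and ran from 0.40 to 0.51 with 1 library left out. Without ATF7+/- CD replicate 1, and again without ATF7+/- CD replicate 3, 1 comparison of the family total became called; which one is not given here. Without the 4 CD libraries, which leaves 1 CD library per genotype assumed to vary like the other groups, the diet effect in ATF7+/- was called (0.63) and that over both genotypes turned to 0.26; with 1 library left out that effect over both ran from -0.17 to 0.0493, and genotype on CD from -0.33 to 0.11. Without the 4 CD libraries the 34 nt sum turned to -0.23 for diet in WT and -0.66 for genotype on CD (-0.21 to 0.60 with 1 left out). There, 5 fragments starting at position 2 that were called lower over both genotypes turned to 0.0085, 0.0502, 0.29, 0.14 and 0.19. With only members that have no other difference, A and G at position 34 averaged 25.4% in WT LPD. In the shallowest library 3 reads equal 1.36 RPM.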
